A study of Mus musculus with 64 samples.

Results

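RNA levels of 10 genes of the major histocompatibility complex (MHC) antigen presentation pathways were followed in the mouse brain: B2m, H2-K1, H2-D1, Tap1, Tap2, Psmb8, Psmb9, H2-Aa, H2-Ab1 and Cd74. They were chosen by name, and all 10 were found by Ensembl ID among the 18432 genes of the table. The mice were Cyfip2 Arg87Cys knock-ins (KI), heterozygous for the edited allele, or their wild-type (WT) littermates, all of the C57BL/6N strain. CYFIP2 is a subunit of the WAVE complex that controls actin assembly, and these KI mice have neonatal spasms, a seizure-free interval and spontaneous recurrent seizures as adults. Frontal cortex and hippocampus were dissected from both hemispheres of each mouse at postnatal week (PWK) 1, 7, 14 or 28, with 4 mice per genotype and age, which gave 64 libraries in 16 groups of 4. The model is a germline knock-in, so every cell of a KI mouse carries the change, and the whole dissected tissue was sequenced. All values are normalized counts, that is, estimated read counts per gene divided by a scaling factor for each library.

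Antigen presentation shows peptides on the cell surface to T cells. In the class I route, the proteasome cuts cytosolic proteins, the TAP transporter moves the peptides into the endoplasmic reticulum, and a heavy chain paired with β2-microglobulin carries them to the surface of nearly all nucleated cells. In the class II route, antigen-presenting cells load peptides from endosomes onto an α and a β chain that were held by the invariant chain until then. In the healthy brain class II is largely limited to microglia and to macrophages at its borders, class I is low in most cells, and interferons induce both routes together with the immunoproteasome. Here H2-K1 and H2-D1 encode class I heavy chains, B2m the β2-microglobulin light chain, Tap1 and Tap2 the subunits of the transporter, and Psmb8 and Psmb9 catalytic subunits of the immunoproteasome. H2-Aa and H2-Ab1 encode the α and β chains of the class II molecule I-A, and Cd74 the invariant chain.

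Of these genes, 8 lie on chromosome 17, in the MHC region, while B2m and Cd74 lie on other chromosomes (GRCm38, GENCODE annotation). H2-K1 (ENSMUSG00000061232) runs on the minus strand at chr17:33996017-34000347 and H2-D1 (ENSMUSG00000073411) on the plus strand at chr17:35262730-35267499. B2m (ENSMUSG00000060802) is at chr2:122147686-122153083. Tap1 (ENSMUSG00000037321, chr17:34187553-34197225) and Psmb9 (ENSMUSG00000096727, chr17:34181987-34187764) are transcribed away from each other, and their exons overlap by 212 bases on opposite strands. H2-Aa (ENSMUSG00000036594) is at chr17:34282744-34287823 and H2-Ab1 (ENSMUSG00000073421) at chr17:34257689-34269419. H2-K1 and H2-D1 are near copies in part. Of the distinct 31-base words in their annotated transcripts, 22.8% and 26.7% also occur in transcripts of other genes, among them each other and Q-region class I genes, so reads could be split between them. For B2m and Psmb9 that share was 0%, and for the other 6 genes it lay between 0.267% and 1.41%.

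The start regions of B2m, H2-K1 and H2-Aa are shown to compare a light chain, a class I heavy chain and a class II chain. RefSeq windows (GRCm38.p6) were at hand for 7 of the 10 genes, all but Tap2, H2-Ab1 and Cd74. Capitals mark matches, on either strand, to the letters AANNGAAA (core of the interferon regulatory factor element), GGG and TT with 2 bases of any kind between them, then 1 base of any kind and CC (kappaB-like), TGACG (core of the cyclic AMP response element) and CCAAT. All sequences read 5′ to 3′ on the strand of the gene and end just before the annotated start:
B2m, chr2:122147437-122147685, plus strand: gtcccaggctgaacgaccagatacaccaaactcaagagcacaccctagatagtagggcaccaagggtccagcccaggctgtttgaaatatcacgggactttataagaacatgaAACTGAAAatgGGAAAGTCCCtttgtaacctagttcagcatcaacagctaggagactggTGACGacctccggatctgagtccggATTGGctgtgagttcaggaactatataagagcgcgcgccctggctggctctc
H2-K1, chr17:34000348-34000597, minus strand: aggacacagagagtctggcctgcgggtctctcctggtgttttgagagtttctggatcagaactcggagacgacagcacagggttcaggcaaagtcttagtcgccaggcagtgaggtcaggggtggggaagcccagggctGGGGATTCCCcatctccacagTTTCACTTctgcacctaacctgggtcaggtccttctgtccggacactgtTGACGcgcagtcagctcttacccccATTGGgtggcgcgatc
H2-Aa, chr17:34287824-34288073, minus strand: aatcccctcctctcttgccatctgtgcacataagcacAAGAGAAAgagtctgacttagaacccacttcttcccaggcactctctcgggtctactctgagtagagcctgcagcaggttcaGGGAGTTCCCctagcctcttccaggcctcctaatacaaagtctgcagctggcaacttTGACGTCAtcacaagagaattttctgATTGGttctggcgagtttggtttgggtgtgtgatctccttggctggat
These 3 stretches hold all 4 motifs, which occur in 21.3%, 4.11%, 17.8% and 33.8% of the 32851 RefSeq windows of 250 bases before a start, in the order given above. The H2-D1 window holds all 4 as well. Those of Tap1 and Psmb9 hold only TGACG and CCAAT, and that of Psmb8 holds none of the motifs. The kappaB-like element comes before the interferon element in the H2-D1 window, as it does for H2-K1, while for B2m and H2-Aa the interferon element comes first. The H2-D1 window precedes the RefSeq start of that gene, which lies inside the gene span given above. The runs that span the pair are shown to compare the heavy chains:
H2-K1, chr17:34000430-34000458, minus strand: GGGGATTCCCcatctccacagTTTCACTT
H2-D1, chr17:35262923-35262951, plus strand: GGGGATTCCCcatctcctcagTTTCACTT
They differ by A18T over 29 bases, counted from 1 at the 5′ end with the base of H2-K1 first. A TGACG followed after 20 or 21 bases by ATTGG was present for B2m, H2-K1, H2-D1 and H2-Aa. These were 4 of the 7 genes with a window, against 0.152% of all windows. The range of 20 to 21 bases is that seen in these same genes, so the comparison with all windows is no test. Of 38 genes of the further lists given below, 1 had that spacing (H2-M3). These are matches of letters only, and factor binding was not measured.

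The normalized counts of a library summed to between 29225576 and 32601227, and scaling has made these totals alike. Precision was judged from the spread between the 4 mice of a group. Genotype differences were tested with limma on log2(value + 1), and a gene was called where its p, adjusted by Benjamini-Hochberg over all genes tested, was under 0.05. Fold changes are on this scale, which understates those of low genes such as Psmb9 and H2-Aa. All 5 cortical markers were lower and all 5 hippocampal markers higher in WT hippocampus than in WT cortex, in the WT comparison at PWK 1 and in that of the adults. Cyfip2 itself was at 33510 ± 4130 in KI against 41799 ± 1928 in WT mice in the cortex of PWK 14 and at 25727 ± 3577 against 34727 ± 608 in that of PWK 28 (SD, n = 4), and the difference was called at PWK 28 (limma adjusted p = 0.00580), while a count per gene cannot tell the edited from the normal copy. In hippocampus Cyfip2 was not called, at 28624 ± 6788 in KI against 32306 ± 2301 in WT mice of PWK 14 (adjusted p = 0.410) and at 26863 ± 2027 against 27610 ± 1170 in those of PWK 28 (adjusted p = 0.667). Genes called in KI against WT numbered 1 to 4 of the 18311 to 18390 genes tested at PWK 1 and 7 and 951 to 4081 at PWK 14 and 28. In these whole-tissue samples, fewer or more cells of a type cannot be told apart from less or more RNA per cell.

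WT levels were described first. Per kilobase of exon, B2m was far above the other genes in every WT group, at 1205 ± 62.7 normalized counts per kb in cortex at PWK 1 and 2294 ± 134 in hippocampus at PWK 28 (SD, n = 4). In every WT group H2-D1 came next, followed by H2-K1. In hippocampus at PWK 28 H2-D1 stood at 321 ± 26.3 per kb and H2-K1 at 234 ± 44.9, and their libraries overlapped, which they did in no other WT group. The remaining genes stayed under 100 per kb. In cortex at PWK 28 the order went on with Cd74 (75.7 ± 14.1), Tap2 (45.2 ± 9.42), Psmb8 (17.7 ± 2.45), H2-Aa (15.9 ± 5.22), H2-Ab1 (14.5 ± 2.56), Tap1 (12.1 ± 1.78) and Psmb9 (4.88 ± 0.618). From Psmb8 to Tap1 each neighbour overlapped the next, as did Cd74 and Tap2, so their order was not resolved.

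**Figure D1:**
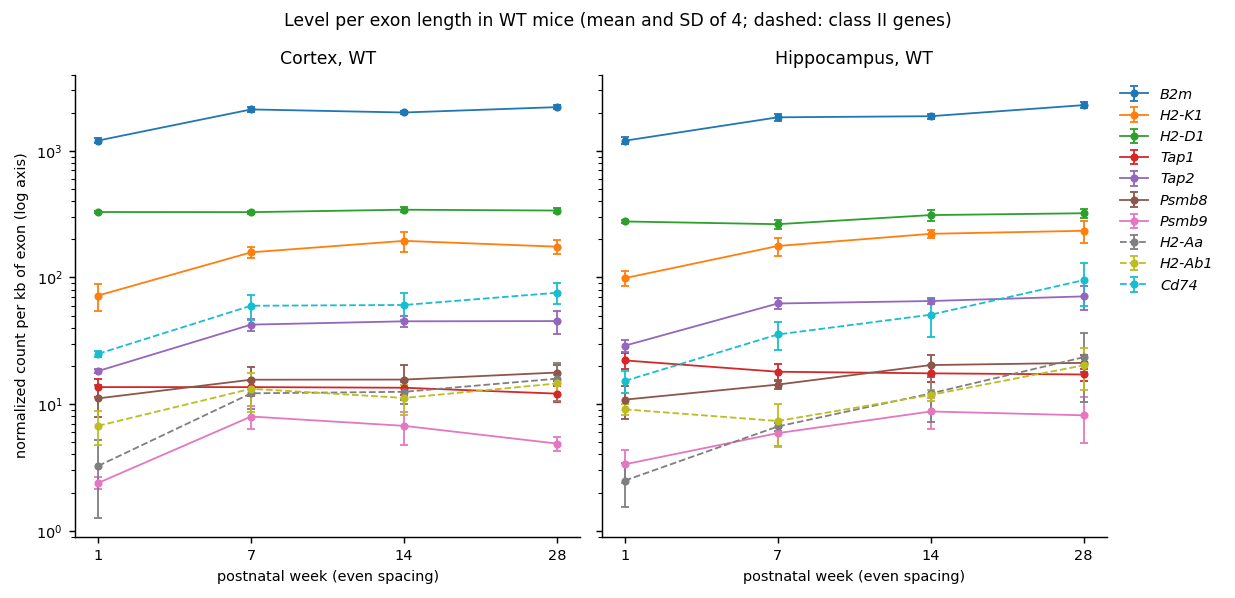
Level of each gene per kilobase of exon in WT mice (vertical axis, normalized count per kb, log scale) by postnatal week (horizontal axis, evenly spaced), in cortex (left) and hippocampus (right). Points are means of 4 mice, bars are the SD, and dashed lines are the class II genes, of which Cd74 reached 95.2 ± 35.2 per kb in hippocampus at PWK 28.

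Most of the genes rose in WT mice between PWK 1 and PWK 7. In cortex 7 of the 10 genes were called higher and 0 lower, where 32.5% of all genes tested were called higher. B2m went from 1036 ± 53.9 to 1824 ± 71.8 (SD, n = 4), which limma gave as a rise of 0.82 on the log2 scale (SE 0.05) with an adjusted p = 6.69e-08. H2-K1 rose by 1.15, Tap2 by 1.20, Psmb9 by 1.62, H2-Aa by 2.07, H2-Ab1 by 0.91 and Cd74 by 1.21, with limma adjusted p between 3.52e-06 and 0.0234. H2-D1, the other heavy chain, had a log2 fold change of -0.00 with a 95% confidence interval from -0.11 to 0.11. Tap1 was at 0.00 (interval from -0.36 to 0.37), while Tap2, the partner subunit, went from 69.0 ± 2.51 to 160.4 ± 16.4 (SD, n = 4). The H2-Ab1 call was lost without WT replicate 2 or 4 of either age (adjusted p up to 0.0747). In hippocampus 6 genes were called higher and 0 lower, where 30.9% of all genes were called higher: B2m (0.61), H2-K1 (0.84), Tap2 (1.10), Psmb9 (0.79), H2-Aa (1.39) and Cd74 (1.17). Psmb9 was not called in 5 of the 8 fits without 1 library (adjusted p up to 0.0811, without WT replicate 4 of PWK 1). There H2-Ab1 had a log2 fold change of -0.36 (interval from -0.99 to 0.27) and was at 23.3 ± 2.41 and 18.9 ± 7.05 at the 2 ages (SD, n = 4).

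Between PWK 7 and PWK 28 the 3 class II genes were called higher at the later age in WT hippocampus. The 4 WT hippocampi at PWK 7 held 41.4, 53.6, 68.3 and 74.8 normalized counts of Cd74 and those at PWK 28 held 134, 88.9, 212 and 205. The 2 ages did not overlap, and the log2 fold change was 1.36 (SE 0.28, limma adjusted p = 0.0104). H2-Aa was at 24.5, 24.7, 28.0 and 23.8 at PWK 7 and at 64.3, 31.6, 139 and 121 at PWK 28. The older mice were all higher but spread widely, with WT replicates 3 and 4 on top. H2-Aa rose by 1.57 (adjusted p = 0.0233) and H2-Ab1 by 1.39 (adjusted p = 0.0277). In all, 6 of the 10 genes were called higher and 0 lower, where 6.35% of all genes tested were called higher. The others were B2m (0.32), H2-D1 (0.29) and Psmb8 (0.55). Apart from B2m and Cd74 these calls were lost in some fits without 1 library, with adjusted p up to 0.103 (Psmb8 without WT replicate 3 of PWK 28), and with all 64 libraries in 1 fit B2m, H2-D1 and Psmb8 were not called. In cortex 0 of the 10 genes were called, and 1 had an unadjusted p under 0.05 (Psmb9, -0.67), where 22.2% of all genes were called. There the log2 fold change of Cd74 was 0.35 with an interval from -0.07 to 0.76. Sums of 5 choroid plexus markers varied widely among the WT hippocampi, from 1360 to 95334 at PWK 7 and from 36285 to 123149 at PWK 28. The part of this tissue in the values was not tested.

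Hippocampus and cortex of WT adults (PWK 7, 14 and 28, with age as a covariate) differed by small amounts. Tap2 was higher in hippocampus by 0.57 (SE 0.08, limma adjusted p = 5.84e-07), Tap1 by 0.42 and H2-K1 by 0.25, while H2-D1 was lower by -0.18 and B2m by -0.08. That made 5 of 10 genes called, against 57.8% of all genes tested. The B2m difference was not called with the mouse as a block (adjusted p = 0.0966), with total-sum scaling (-0.04, adjusted p = 0.305) or with all 64 libraries in 1 fit (adjusted p = 0.363), which also ended the calls of H2-K1 and H2-D1. It was also lost in 14 of the 24 fits without 1 library (adjusted p up to 0.0850). The class II genes were not called, with intervals of -0.63 to 0.27 for H2-Aa, -0.52 to 0.30 for H2-Ab1 and -0.63 to 0.11 for Cd74. At PWK 1 the same heavy-chain and transporter genes differed in the same direction, H2-K1 by 0.47, H2-D1 by -0.25, Tap1 by 0.70 and Tap2 by 0.65, and Cd74 was lower in hippocampus by -0.71 (5 of 10 called, against 34.7% of all genes). The H2-D1 call at PWK 1 was lost with total-sum scaling (-0.15, adjusted p = 0.0506). The H2-K1 call at PWK 1 was lost in 6 of the 8 fits without 1 library (adjusted p up to 0.109, without WT replicate 2 of hippocampus).

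**Figure D2:**
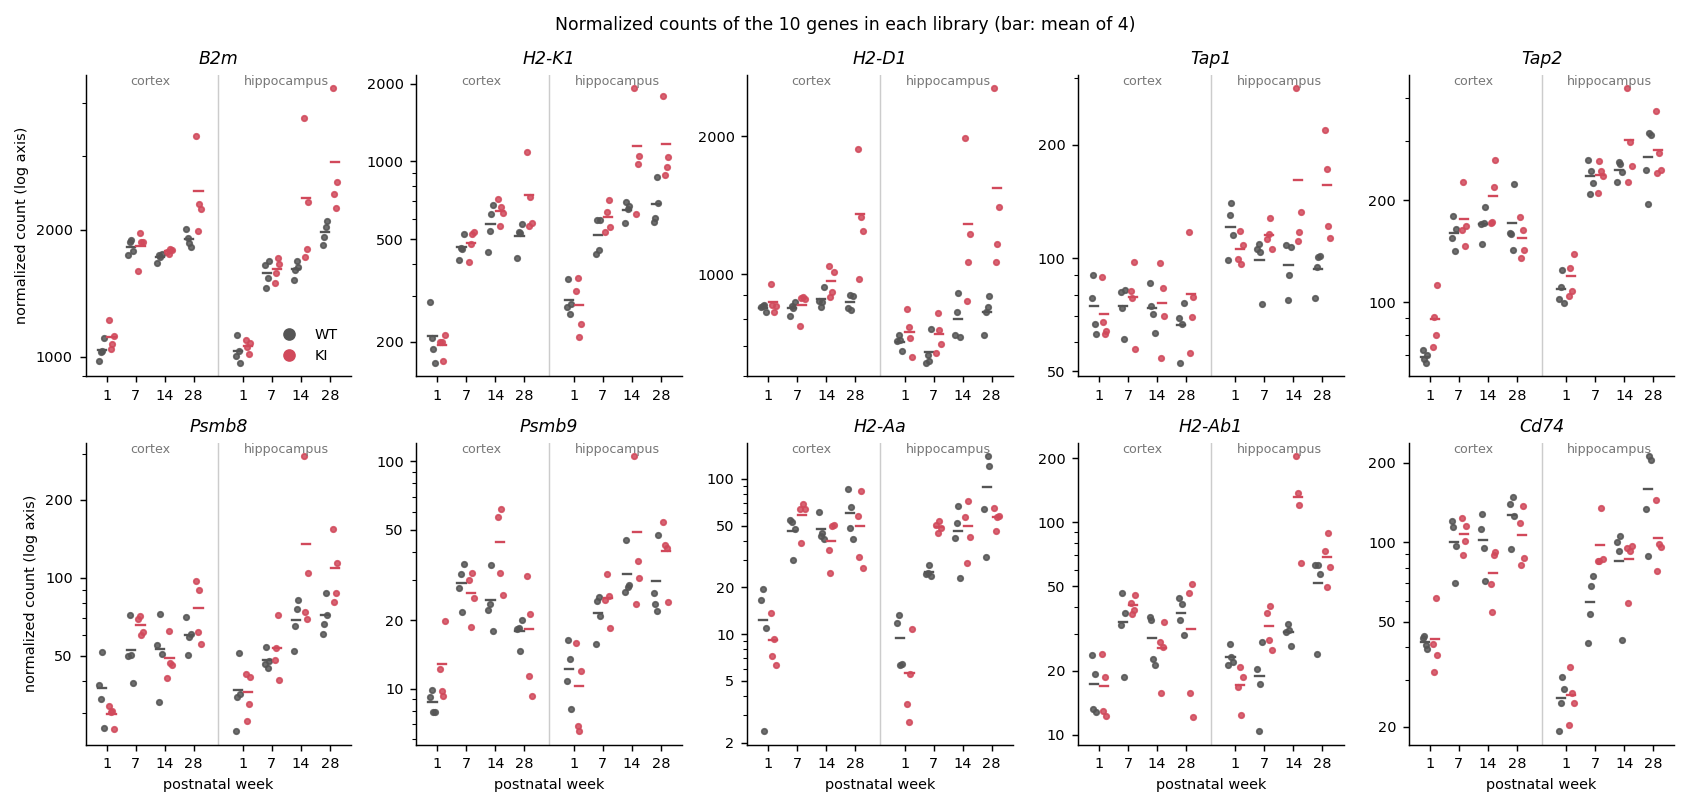
Normalized count of each gene in each library (vertical axis, log scale) by postnatal week (horizontal axis), in cortex (left of each panel) and hippocampus (right), with WT in grey and KI in red. Points are single mice and bars are means of 4; KI mice of PWK 28 reach 4338 for B2m in hippocampus, where the highest WT mouse is at 2102.

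The class I genes were then compared between KI and WT mice. In hippocampus at PWK 28 the level of all 7 class I route genes was above the WT mean in KI replicates 1 and 3, and 3 of the 10 genes were called higher: H2-D1, H2-K1 and Tap1. Of all genes tested, 8.92% were called higher in that comparison. H2-D1 stood at 2544, 1066, 1165 and 1405 in the 4 KI mice (replicates 1 to 4) and at 737, 830, 848 and 900 in the WT mice. Every KI mouse was above every WT mouse, and KI replicate 1 was far above the other 3. The log2 fold change was 0.81 (SE 0.22, limma adjusted p = 0.0270). H2-K1 was at 1792, 889, 949 and 1036 in KI and at 584, 602, 872 and 688 in WT mice. The groups again did not overlap, though KI replicate 2 and WT replicate 3 lay close together. The difference was 0.72 on the log2 scale (SE 0.20) with an adjusted p = 0.0320. Tap1, which builds the peptide transporter with Tap2, was at 219, 173, 122 and 113 in KI and at 78.4, 94.5, 101 and 102 in WT mice. KI replicates 1 and 2 were high and the other KI mice just above the WT mice, and Tap1 was higher by 0.69 on the log2 scale (SE 0.20) with an adjusted p = 0.0419.

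B2m had the same shape without passing the threshold. It was at 4338, 2434, 2257 and 2593 in KI and at 1840, 1922, 2027 and 2102 in WT hippocampus at PWK 28. No KI mouse overlapped a WT mouse, with a difference of 0.51 on the log2 scale (SE 0.16) and an adjusted p = 0.0582. Without KI replicate 1 the log2 fold change of B2m was smaller, 0.30, and its adjusted p was 0.0156. The other 3 KI mice lay close together. In total 4 of the 10 genes had all KI above all WT mice, against 11.8% of all genes tested. Psmb8 (0.57, adjusted p = 0.0948), Psmb9 (0.44, interval from -0.23 to 1.11) and Tap2 (0.08, interval from -0.31 to 0.47) were not called. The median log2 fold change of the 10 genes was 0.48, where that of all genes was 0.00.

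These calls rested on few mice. H2-D1 was called without KI replicate 1 (0.54, adjusted p = 0.00683), and so was H2-K1 (0.50, adjusted p = 0.0317), but Tap1 was not (0.51, adjusted p = 0.0951). Leaving out any 1 WT mouse ended the H2-D1 call (adjusted p from 0.0505 to 0.0784) and the Tap1 call (0.0674 to 0.115). The H2-K1 call was lost without WT replicate 1, 2 or 4 (0.0681 to 0.0940), and the Tap1 call also without KI replicate 2 (0.0915), with total-sum scaling (0.0552) and with no filter on low genes (0.0525).

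**Figure D3:**
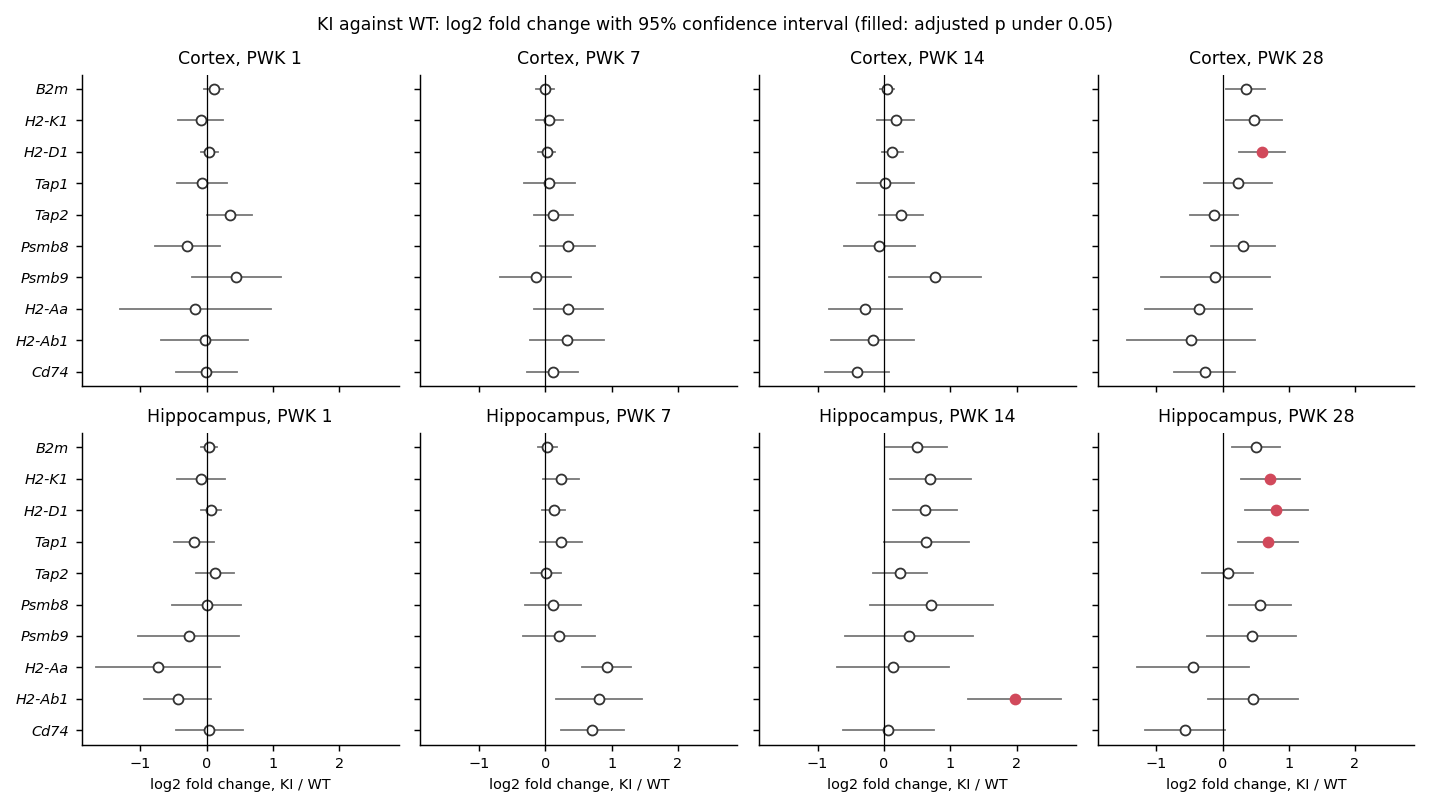
Log2 fold change of each gene in KI against WT mice (horizontal axis) with its 95% confidence interval, by region (rows of panels) and age (columns). Filled red points passed an adjusted p of 0.05: H2-D1 in cortex at PWK 28, H2-Ab1 in hippocampus at PWK 14, and H2-K1, H2-D1 and Tap1 in hippocampus at PWK 28.

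In hippocampus at PWK 14 all 10 genes had a positive log2 fold change, with a median of 0.56, though those of Psmb9, H2-Aa and Cd74 turned negative in some alternative fits, down to -0.07, -0.15 and -0.23. Among the 7 class I route genes 0 were called, where 7.64% of all genes were called higher. The 3 class I genes with an unadjusted p under 0.05 were H2-D1, H2-K1 and B2m. H2-D1 was at 1982, 874, 1062 and 1225 in KI and at 737, 827, 909 and 731 in WT mice. KI replicate 1 was again the highest, and KI replicate 2 lay within the WT range. The log2 fold change was 0.62 (SE 0.21, limma adjusted p = 0.0805). H2-K1 was at 1918, 626, 975 and 1048 in KI and at 578, 696, 651 and 673 in WT mice, and B2m at 3688, 1721, 1802 and 2327 in KI and at 1524, 1608, 1686 and 1633 in WT mice. H2-K1 overlapped through KI replicate 2. B2m did not overlap and was 1 of 3 genes of the 10 with all KI above all WT mice (B2m, Tap1 and H2-Ab1), against 11.6% of all genes tested. H2-K1 and B2m had log2 fold changes of 0.70 (adjusted p = 0.112) and 0.49 (adjusted p = 0.134). Psmb8, an immunoproteasome subunit, was at 294, 73.9, 69.3 and 104 in KI and at 52.0, 64.8, 75.9 and 82.3 in WT mice. Only KI replicates 1 and 4 exceeded the WT mice, and the interval of its log2 fold change of 0.72 ran from -0.22 to 1.65. With all 64 libraries in 1 fit, which lends the spread of all groups to each comparison, B2m, H2-K1, H2-D1, Tap1 and Psmb8 were called as well. Without KI replicate 2, H2-K1 (0.95, adjusted p = 0.0255) and H2-D1 (0.78, adjusted p = 0.0353) were called. Without KI replicate 1 the log2 fold changes were smaller and not called, at 0.41 for H2-K1 (adjusted p = 0.111), 0.39 for H2-D1 (adjusted p = 0.0550), 0.26 for B2m (adjusted p = 0.102), 0.33 for Tap1 (adjusted p = 0.207) and 0.26 for Psmb8 (adjusted p = 0.470).

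In cortex a class I gene was called at PWK 28. H2-D1 was at 1875, 977, 1332 and 1244 in KI and at 845, 901, 835 and 899 in WT mice. Every KI mouse was above every WT mouse, and H2-D1 was called with a rise of 0.60 on the log2 scale (SE 0.16, limma adjusted p = 0.0208). H2-D1 was the 1 gene of the 10 called there, where 12.2% of all genes tested were called higher, and the 1 gene of the 10 without overlap, where 14.1% of all genes had KI above WT. It was still called without KI replicate 1 (0.43, adjusted p = 0.0197) but not without WT replicate 1 (adjusted p = 0.0554) or WT replicate 3 (adjusted p = 0.0548). B2m was at 3341, 1993, 2309 and 2247 in KI and at 2008, 1909, 1866 and 1825 in WT cortex, 0.35 higher on the log2 scale (SE 0.13) with a limma adjusted p = 0.0820. H2-K1 was at 1089, 563, 726 and 578 in KI and at 424, 534, 526 and 572 in WT cortex, with 0.48 (SE 0.19, adjusted p = 0.0989). In both, KI replicate 2 lay among the WT mice, and without it both were called (adjusted p = 0.0236 and 0.0428). KI replicate 1 was the highest for both, and without it B2m was 0.20 higher (adjusted p = 0.0800) and H2-K1 0.27 higher (adjusted p = 0.171). Tap1, Tap2, Psmb8 and Psmb9 had intervals that included 0. At PWK 14 in cortex 0 of the 10 genes were called, where 5.18% of all genes were, and 1 had an unadjusted p under 0.05. That was Psmb9, at 57.2, 32.3, 62.0 and 25.9 in KI and 22.3, 23.5, 34.9 and 17.9 in WT mice, higher by 0.77 on the log2 scale (adjusted p = 0.193). B2m was the 1 gene with all KI above all WT mice there, against 6.64% of all genes tested. For B2m in cortex at PWK 14 the interval ran from -0.06 to 0.15 and for H2-D1 from -0.03 to 0.28.

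At PWK 1 and PWK 7, 0 of the 10 genes were called in either region in limma's test. Of all genes tested 0.00546% and 0.00545% were called in cortex at PWK 1 and PWK 7, and 0.0109% and 0.0218% in hippocampus at PWK 1 and PWK 7. Genes of the 10 with an unadjusted p under 0.05 numbered 1 in cortex and 0 in hippocampus at PWK 1, and 0 in cortex and 3 in hippocampus at PWK 7. At PWK 1 the exception was Tap2 in cortex, at 73.7, 90.5, 80.0 and 113 in KI and 72.1, 67.8, 66.3 and 69.7 in WT mice. Those groups did not overlap, which held for 1.55% of all genes tested with KI above WT, and the log2 fold change was 0.35 (adjusted p = 0.908). In hippocampus at PWK 1 H2-Ab1 went the other way, at 12.4 to 20.9 in KI and 21.3 to 26.7 in WT mice, and was not called. The share of all genes with KI below WT there is not given, so this separation is not read as a result. For B2m the intervals at these ages stayed between -0.14 and 0.24 on the log2 scale, and for H2-D1 between -0.11 and 0.30.

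The 3 genes at PWK 7 were the class II genes of the hippocampus. H2-Aa was at 50.1, 44.5, 53.2 and 48.1 in KI and at 24.5, 24.7, 28.0 and 23.8 in WT mice. All KI mice were clearly above all WT mice, with little spread in either group. The log2 fold change was 0.93 (SE 0.17), but limma's adjusted p was 0.409 over 18390 genes. Cd74 was at 84.8, 84.5, 134 and 86.5 in KI and at 41.4, 53.6, 68.3 and 74.8 in WT mice. The groups did not overlap, with KI replicate 3 the highest, and the log2 fold change was 0.71 (adjusted p = 0.631). H2-Ab1 was at 37.4, 27.8, 40.5 and 25.1 in KI and at 20.4, 10.5, 17.3 and 27.4 in WT mice, and these groups overlapped (0.81, adjusted p = 0.725). No overlap with KI above WT was found for 1.62% of all genes tested in that comparison. In cortex at PWK 7 the log2 fold changes of H2-Aa, H2-Ab1 and Cd74 were 0.35, 0.32 and 0.11, with intervals that included 0.

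At PWK 14 the class II genes of the hippocampus parted. H2-Ab1, the β chain, was at 204, 138, 120 and 64.1 in KI and at 30.5, 33.4, 31.3 and 26.2 in WT mice. Every KI mouse was well above every WT mouse, and the WT mice were tightly grouped. The log2 fold change was 1.97 (SE 0.31, limma adjusted p = 0.00417), and H2-Ab1 was the 1 gene of the 10 called in that comparison. It was called in all 8 fits without 1 library, with log2 fold changes of at least 1.72. H2-Aa, the α chain that pairs with it, was at 57.1, 28.6, 72.2 and 42.2 in KI and at 41.7, 52.2, 67.2 and 23.1 in WT mice. Cd74 was at 95.3, 59.1, 92.7 and 97.0 in KI and at 100.2, 92.4, 106 and 42.7 in WT mice. For both the groups overlapped, with log2 fold changes of 0.13 (interval from -0.71 to 0.98) and 0.07 (interval from -0.61 to 0.75). The ratio of H2-Ab1 to H2-Aa counts lay between 1.52 and 4.82 in the 4 KI hippocampi of PWK 14 and between 0.465 and 1.13 in the 4 WT hippocampi. In the other 44 libraries of PWK 7 to 28 it lay between 0.423 and 1.57, below 3 of these 4 KI mice. The highest of these 44 was KI replicate 3 of hippocampus at PWK 28. In that region and age the ratio was 1.13, 1.07, 1.57 and 1.06 in KI and 0.981, 0.763, 0.454 and 0.475 in WT mice, also without overlap. At PWK 1, where both genes were low, it reached 8.11.

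**Figure D4:**
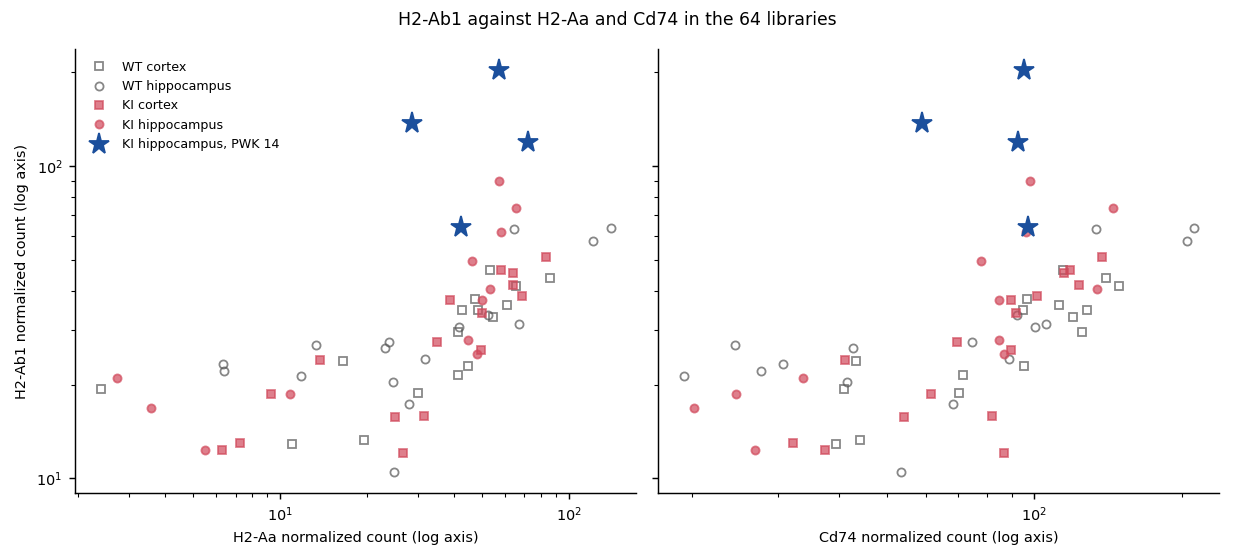
Normalized count of H2-Ab1 (vertical axis, log scale) against H2-Aa (left) and Cd74 (right, horizontal axes, log scale) in the 64 libraries, with KI hippocampi of PWK 14 as blue stars. The 4 stars lie between 64.1 and 204 for H2-Ab1 at H2-Aa and Cd74 counts within the range of the other libraries.

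By PWK 28 the 3 class II genes were not called in hippocampus. H2-Ab1 was at 73.6, 49.6, 89.6 and 61.4 in KI and at 63.0, 24.1, 63.3 and 57.4 in WT mice, which overlapped (log2 difference 0.46, adjusted p = 0.357). H2-Aa was at 65.4, 46.1, 57.0 and 57.9 in KI and at 64.3, 31.6, 139 and 121 in WT mice, and Cd74 at 145, 77.9, 98.2 and 96.3 in KI and at 134, 88.9, 212 and 205 in WT mice. WT replicates 3 and 4 were the highest of the 8 mice for both genes, while the KI mice stayed within the WT range except for KI replicate 2 in Cd74. The log2 fold changes were -0.44 (interval from -1.29 to 0.41) for H2-Aa and -0.56 (interval from -1.17 to 0.04) for Cd74. Cd74 was called lower without WT replicate 2 (-0.82, adjusted p = 0.0461). In cortex the class II genes were not called at any age, and all 3 had negative values at PWK 14 and PWK 28, from -0.17 to -0.48, although that of H2-Ab1 at PWK 14 was 0.04 without KI replicate 2. H2-Ab1 in cortex at PWK 28 was split, at 46.6 and 51.2 in KI replicates 1 and 3 and at 15.8 and 12.1 in KI replicates 2 and 4, against 29.4 to 44.0 in WT mice.

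Whether the KI effect differed between regions was tested with an interaction term. At PWK 14 the KI effect on H2-Ab1 was larger in hippocampus by 2.14 (SE 0.44, limma adjusted p = 0.0164), and the other 9 genes were not called, where 2.85% of all genes tested were. In cortex H2-Ab1 was at 27.3, 15.7, 25.9 and 33.9 in KI and at 36.0, 34.6, 22.9 and 21.4 in WT mice. Those groups overlapped, and the interval of the cortical log2 fold change ran from -0.80 to 0.46. The call held in all 16 fits without 1 library, without KI replicate 1 in both regions (1.94, adjusted p = 0.0157) and with the mouse as a block (adjusted p = 0.0305). For H2-D1 the difference between the regions at PWK 14 was 0.49 (interval from -0.02 to 1.00) and for B2m 0.45 (interval from -0.03 to 0.92). At PWK 28 0 of the 10 genes differed between regions, where 4.57% of all genes did, and 0 had an unadjusted p under 0.05. The largest difference was 0.94 for H2-Ab1 (interval from -0.28 to 2.15).

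The KI effect was not found to differ between ages for any of the 10 genes. Between PWK 7 and PWK 14, 0 of 10 were called in cortex and 0 in hippocampus, where 3.18% and 10.3% of all genes tested were called, and 1 in each region had an unadjusted p under 0.05. In hippocampus that was H2-Ab1, whose effect was larger at PWK 14 by 1.16 (interval from 0.21 to 2.11, adjusted p = 0.114), and it was called without KI replicate 4 of PWK 14 (1.47, adjusted p = 0.0227). Psmb9 was that gene in cortex (0.91, interval from 0.06 to 1.77). Between PWK 14 and PWK 28, 0% of all genes were called in either region. With unadjusted p under 0.05 stood H2-D1 in cortex (larger at PWK 28 by 0.47, interval from 0.09 to 0.86) and H2-Ab1 in hippocampus (smaller by -1.52, interval from -2.52 to -0.52). H2-D1 was called without KI replicate 2 of PWK 28 (0.62, adjusted p = 0.0274).

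Among the KI mice the class I route genes varied together and with 1 library per group. KI replicate 1 was the highest of the 4 KI mice for 8 of the 10 genes in hippocampus at PWK 14, for 9 of 10 in hippocampus at PWK 28 and for 7 of 10 in cortex at PWK 28. In cortex at PWK 14 it was the highest for 3 of 10. Cortex and hippocampus with the same number were taken to come from 1 mouse, and the numbers of PWK 14 and PWK 28 name different mice. In that library the 7 class I route genes stood at 1.74 to 4.28 times the WT mean in hippocampus at PWK 14, at 1.37 to 3.07 times in hippocampus at PWK 28, and at 1.04 to 2.16 times in cortex at PWK 28. The other 3 KI mice had medians over these genes from 1.07 to 1.44 times the WT mean in hippocampus at PWK 14, from 1.29 to 1.31 at PWK 28 and from 1.03 to 1.21 in cortex at PWK 28. KI replicate 1 was also the highest KI mouse for Gfap, an intermediate filament gene of reactive astrocytes, in all 4 of these groups of PWK 14 and PWK 28. Gfap itself was at 66135 ± 43641 in the KI hippocampi of PWK 14, where WT mice had 8637 ± 774 (SD, n = 4).

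Summed microglial markers were above the WT range in all 4 KI hippocampi at PWK 28 and in 2 of the 4 at PWK 14. The summed level of 12 microglial markers was 38587, 13113, 12678 and 18754 in the KI hippocampi of PWK 14 and between 11846 and 14203 in the WT ones. KI replicates 1 and 4, which had the highest B2m, H2-K1 and H2-D1, were thus above the WT mice, and the other KI mice were within their range. At PWK 28 the sum was between 15803 and 18781 in KI and between 13417 and 14229 in WT hippocampus. There 6 of the 12 markers were called higher, among them Trem2 (1.11), C1qa (0.70) and Aif1 (0.61), against 8.92% of all genes tested. KI replicate 2 had the highest of these sums (18781) but the lowest H2-D1 (1066) and H2-K1 (889) of the KI mice. The part of the microglial markers in the class I values was not tested. In cortex at PWK 28, where H2-D1 was called, the sum was between 13537 and 14507 in KI and between 13786 and 15172 in WT mice, and KI replicate 1, the highest for H2-D1, had the lowest sum of the 8. There 1 of the 12 microglial markers was called higher (Aif1, 1.14), against 12.2% of all genes tested. In hippocampus at PWK 7 the microglial sums were between 12229 and 12889 in KI and between 12422 and 13664 in WT mice.

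Of the 7 markers of border-associated macrophages 1 was called higher in hippocampus at PWK 14 (Cd163, 0.91), where 7.64% of all genes were, and 0 at PWK 28, with sums from 386 to 581 in KI and 438 to 573 in WT mice at PWK 14. At PWK 7 their sums were 543 to 592 in KI and 372 to 618 in WT hippocampus. Of 7 dendritic cell markers 4 were in the table. Itgax, which reactive microglia also express, rose by 2.41 in hippocampus at PWK 28 (limma adjusted p = 0.0194), while Zbtb46, Cd209a and Flt3 fell there (adjusted p from 0.00800 to 0.0368). Zbtb46 also fell in cortex at both PWK 14 and PWK 28, Cd209a in cortex at PWK 28 and Flt3 in hippocampus at PWK 14. Of 6 B cell markers 4 were in the table. Ighm rose in cortex at PWK 14 (0.70) and PWK 28 (1.55) and in hippocampus at PWK 28 (1.12), while Cd79a had a mean of 6.42 and Cd79b of 5.39 over all libraries, the latter at 0 in 2 of them. Of 9 T and NK cell markers 3 were in the table (Cd4, Trbc2 and Lck), without Cd3e and Cd8a, and Trbc2 fell by 0.86 in cortex at PWK 14 and Lck by 0.96 in hippocampus at PWK 28. Their part in the values of the 10 genes was not tested.

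Markers of other cell types moved in the same comparisons. The summed level of 5 astrocyte markers was between 73320 and 192957 in KI and between 41003 and 45257 in WT hippocampus at PWK 14, and between 71271 and 82983 in KI and between 42632 and 44272 in WT hippocampus at PWK 28. The genotypes did not overlap at either age, and Gfap and Aqp4, a water channel of astrocyte endfeet, were the 2 of 5 called higher at both. Gfap alone was at 40059 to 131431 in KI and 7502 to 9231 in WT hippocampus at PWK 14. At PWK 28 it was at 32067 to 44711 in KI and 8803 to 9894 in WT mice. It thus made up much of the difference between these sums. Sums of 6 markers of mural cells and fibroblasts lay between 6190 and 9116 in KI and between 4377 and 5154 in WT hippocampus at PWK 14, also without overlap, with 2 of 6 called higher (Col1a1 and Lum), and at PWK 28 the genotypes overlapped, with Rgs5 and Lum called higher. At PWK 28 in cortex, where H2-D1 was called, sums of 5 neuronal markers were between 219077 and 232698 in KI and between 176541 and 199788 in WT mice. There the 5 red blood cell markers were lower in KI mice, with sums from 3255 to 6609 against 8514 to 9786, as were the 4 dendritic cell markers, at 549 to 751 against 829 to 856. The 4 B cell markers summed to more there, at 2066 to 4409 against 919 to 1094. Cd79a and Cd79b, with the low means given above, added little to this sum, and Ighm was called higher there. The dendritic cell sums were also below and the B cell sums also above the WT range in all KI mice in hippocampus at PWK 28 and in cortex at PWK 14. At PWK 14 in cortex, where 0 of the 10 genes were called, the sums of 7 endothelial markers were lower in every KI mouse, at 4257 to 4896 against 6034 to 6669, those of the T and NK cell markers were lower as well, and those of 5 hippocampal markers were higher. Sums of 5 choroid plexus markers varied widely among hippocampi of both genotypes. They ran from 40384 to 98645 in KI and 1360 to 95334 in WT mice at PWK 7. At PWK 14 they ran from 1813 to 97016 in KI and 1943 to 102877 in WT mice. At PWK 28 they ran from 59506 to 102067 in KI and 36285 to 123149 in WT mice. The part of these cell types in the values of the 10 genes was not tested.

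Further genes of the 2 routes were read from lists. Beside the shares given above for higher calls, 2.48% of all genes tested were called higher and 2.7% lower in cortex at PWK 14. The shares called lower were 10% in cortex and 6.91% in hippocampus at PWK 28, and 7.95% in hippocampus at PWK 14. Of 7 other class I molecules, 0 were called in hippocampus at PWK 14 and 1 at PWK 28: H2-T23, a nonclassical molecule that presents leader peptides of class I chains, rose by 0.59 (SE 0.15, limma adjusted p = 0.0238). In cortex H2-T23 fell by 0.69 (adjusted p = 0.0246) at PWK 28, and H2-T22 fell by 0.39 at PWK 14 and by 0.54 at PWK 28 (adjusted p = 0.0132 and 0.00118). At PWK 28 the KI effect differed between the regions for both H2-T22 (by 0.69, adjusted p = 0.00185) and H2-T23 (by 1.28, adjusted p = 0.00886). Over the list the median log2 fold change at PWK 28 was 0.59 in hippocampus and -0.03 in cortex. All 7 had positive values in hippocampus at PWK 28, and 4 had no overlap between genotypes, against 11.8% of all genes tested.

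Of 10 genes of class I peptide trimming and loading, 2 were called higher and 1 lower in hippocampus at PWK 28. Nlrc5, the transactivator of class I genes, rose by 1.24 (SE 0.34, limma adjusted p = 0.0301), and Erap1, which trims peptides in the endoplasmic reticulum, by 0.52. Calr, the chaperone calreticulin, fell by 0.45 (adjusted p = 0.00179). In cortex at PWK 28 Calr (-0.28) and Psme1, a proteasome activator subunit (-0.32), were called lower and 0 higher. In hippocampus at PWK 14 Canx, the chaperone calnexin, was called (0.21), and in cortex at PWK 14 none was, with 0 of 10 called. Of the 3 subunits that Psmb8, Psmb9 and Psmb10 replace in the immunoproteasome, Psmb7 rose by 0.34 in cortex and by 0.19 in hippocampus at PWK 28, and Psmb5 and Psmb6 were not called in any comparison of the genotypes.

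Of 14 further genes of the class II route, 2 were called in hippocampus at PWK 28 and both code for endosomal proteases. Ctss, which cleaves the invariant chain, rose by 0.70 (SE 0.12, limma adjusted p = 0.00299) and Lgmn by 0.33 (adjusted p = 0.00186). Lgmn also rose in cortex at PWK 28 (0.25). Of the 14 genes, 0 were called in hippocampus at PWK 14. Named after their values were seen, H2-Eb1, the β chain of the other class II molecule I-E, had 0.35 there (SE 0.29), and Ciita, the class II transactivator, 1.67 (SE 0.52, adjusted p = 0.0569) at counts between 8.11 and 36.0 in KI and between 1.65 and 7.56 in WT mice. Ciita, like H2-Ab1, had all KI above all WT mice in that comparison. Of 12 genes of interferon gamma signalling, Jak1, a kinase of the receptor, rose in cortex at PWK 28 (0.32) and in hippocampus at PWK 14 (0.35) and PWK 28 (0.20), and Irf8 rose in hippocampus at PWK 28 (0.68). Jak2 fell in cortex at PWK 14 (0.25) and PWK 28 (0.37) and Irf9 in cortex at PWK 28 (0.38), where written values are sizes on the log2 scale. At PWK 1 and PWK 7 these 5 lists held 0 calls in either region.

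Genes of like pattern were sought among the 12819 genes with a mean of at least 100. Over the 16 group means, those with the highest Pearson r to B2m were Ap1s1, Ctss, Anxa5, Mpeg1 and Saraf (r from 0.962 to 0.968), with Ctss and Mpeg1 expressed by macrophages and microglia. For H2-K1 they were Cst3, AC171111.1, Ikbip, Phyhd1 and Plekha2 (0.970 to 0.978), and for Cd74 Zbtb11, Zmat2, Epha10, Esco1 and Cisd2 (0.939 to 0.952). The group means share the age course of the whole table. Over the 64 libraries after the group means were subtracted, H2-D1 was the gene most like B2m (r = 0.904) and most like H2-K1 (r = 0.804). Next for B2m came Lgals9, Ifit3, Trim25 and Ctss (0.816 to 0.861), among them genes that interferons induce, and for H2-K1 Cnn3, Tnfrsf1a, Amotl1 and Rnf213 (0.723 to 0.776). For Cd74 they were Wls, Bicc1, Cavin2, Thbs1 and Bmp7 (0.563 to 0.655). These values describe 64 libraries of shared tissue, age and mouse, and no test was made of them.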

How the data were processed

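RNA was sequenced from frontal cortex and hippocampus of KI and WT littermates (4 mice per genotype and age, 64 libraries) with a TruSeq stranded kit. The deposited signal values are gene counts that the authors estimated with Salmon, summed per gene with tximport and divided by DESeq2 size factors (GRCm38; the submitters' processing notes name Salmon 0.11.2, DESeq2 1.19.11 and R 3.6.0). They are normalized counts, not raw counts. Raw reads could not be recovered from them, since 20.5% to 43.8% of the values of a library came within 0.1 of whole reads, so no count model was used and the read depth is unknown. All 64 columns were matched to samples by name, and 18420 of 18432 gene IDs to a symbol. The lowest mean of a gene over all libraries was 4.25.

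The groups were compared with limma 3.58.1 (limma-trend, R 4.3.3) on log2(value + 1) over genes with a mean of at least 1 in the libraries of a comparison, with Benjamini-Hochberg adjustment over all of these genes and a threshold of 0.05. All 10 members passed this filter in every comparison. Each p-value sets a difference against the spread between mice within groups, with 4 mice per region, genotype and age. The test between regions in WT adults pooled the adult ages, with age as a covariate. Tests across regions used both regions of the same mice, and the main fit treated these libraries as independent. Each test was two-sided. The members and gene lists were chosen with earlier results of these data known. In the further lists up to 3 called genes per direction and comparison were named, and for B2m, H2-K1 and Cd74 the 5 genes of highest Pearson r. Genes outside this rule are named as such or only as not called. Sample titles give a replicate number per region, and cortex and hippocampus with the same number were taken to come from the same mouse. Over 12819 genes their deviations from the group means correlated at a mean of 0.140 (17 of 32 pairs over 0.1, from -0.0732 to 0.462), against -0.0461 for different numbers, and the mouse was used as a block in an alternative fit. Other alternatives were total-sum scaling, other pseudocounts and filters, all 64 libraries in 1 fit, array quality weights, and leaving out each library. The limma script was tested on simulated data. Levels were compared between genes only per kilobase of merged exons.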

Additional observations from a re-analysis of the deposited data

Results flagged for a closer look

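Of 160 sets of 4 libraries (10 genes in 16 groups), 13 held a library far from the other 3 by Dixon's test, which chance gives in about 1 of 20 groups. KI replicate 1 stood apart above the other KI mice in hippocampus at PWK 28 for B2m (4338) and H2-K1 (1792), and in hippocampus at PWK 14 for Tap1 (282), Psmb8 (294) and Psmb9 (105). In cortex at PWK 7 the library that stood apart was KI replicate 1 for H2-D1 (771) and KI replicate 2 for H2-Aa (38.6). Among KI hippocampi Cd74 stood apart in KI replicate 3 at PWK 7 (134) and in KI replicate 2 at PWK 14 (59.1). In WT hippocampus the libraries that stood apart were WT replicate 4 at PWK 7 for Tap1 (75.5), WT replicate 2 at PWK 14 for Psmb9 (44.9), WT replicate 4 at PWK 28 for Psmb9 (47.4) and WT replicate 2 at PWK 28 for H2-Ab1 (24.1).

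The KI effect on H2-Ab1 at PWK 14 differed between the regions by 2.14 on the log2 scale in the interaction test (limma adjusted p = 0.0164), larger in hippocampus.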

How the results depend on the processing

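Over the 10 genes and 20 comparisons, 3755 alternative values kept their side of the threshold, 24 passed it newly and 80 no longer passed it. Of the 3755, 145 values of 52 differences had the opposite sign, at sizes up to 0.31, and 0 of these 145 were called in either fit, so no called value changed direction. Of the 35 calls of these genes, 23 held in every fit without 1 library and 12 were lost without at least 1. The read depth is unknown, so how far counting error limits low genes such as Psmb9, H2-Aa and H2-Ab1 could not be computed.

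The number of the 10 genes called moved as follows, and the cause was not tested. With all 64 libraries in 1 fit, KI against WT gave 2 instead of 1 in cortex at PWK 28 and 6 instead of 1 in hippocampus at PWK 14. The same fit gave 3 instead of 6 for WT hippocampus at PWK 28 against PWK 7, 3 instead of 5 for WT hippocampus against cortex at PWK 1 and 2 instead of 5 for the adults. Array quality weights gave 2 in cortex at PWK 28 and 1 instead of 0, H2-D1, for the difference between PWK 14 and PWK 28 in cortex. A pseudocount of 10 gave 1 instead of 0 for WT cortex at PWK 28 against PWK 7. Without 1 library the counts were 0 to 3 in cortex at PWK 28, 1 to 3 in hippocampus at PWK 14 (main value 1) and 0 to 4 in hippocampus at PWK 28 (main value 3). They were 0 to 1 for the difference between PWK 14 and PWK 28 in cortex, 0 to 1 for that between PWK 7 and PWK 14 in hippocampus, 0 to 1 for WT cortex and 2 to 5 for WT hippocampus at PWK 28 against PWK 7. For WT PWK 7 against PWK 1 they were 6 to 8 in cortex and 5 to 7 in hippocampus, and for WT hippocampus against cortex 4 to 5 at PWK 1 and 4 to 5 in adults. Leaving out KI replicate 1 in both regions was an alternative chosen after seeing the data.

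KI and WT mice, and mice of different ages, share only a replicate number. Same-numbered KI and WT libraries correlated at a mean of 0.0260 (10 of 32 pairs over 0.1) against -0.00905 for other numbers, and ages at 0.00579 (15 of 48 pairs) against -0.00212. With the replicate number as a block, 2 instead of 1 of the 10 genes were called in cortex at PWK 28, where B2m was added (limma adjusted p = 0.0491). Tap1 in hippocampus at PWK 28 (limma adjusted p = 0.0794) and Psmb8 in WT hippocampus at PWK 28 against PWK 7 (limma adjusted p = 0.0823) were not called with that block. Between regions of the same mice the block ended the B2m call in WT adults. It changed no other call of the 10 genes.

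Counts over all genes moved too. With all 64 libraries in 1 fit, 1946 instead of 951 genes were called in cortex and 6050 instead of 2870 in hippocampus at PWK 14, and the block gave 1788 in the latter. The difference between regions gave 2000 instead of 525 genes at PWK 14 (1027 with array weights) and 1320 instead of 841 at PWK 28 in that 1 fit. The difference between PWK 14 and PWK 28 gave 913 instead of 0 in cortex (908 with array weights, 9 with total-sum scaling) and 469 instead of 0 in hippocampus (2 with the block), and that between PWK 7 and PWK 14 in hippocampus 3081 instead of 1899. At PWK 1 and PWK 7 every fit with all libraries called 0 to 5 genes in KI against WT. Total-sum scaling moved the split of all called genes into higher and lower in KI mice from 455 and 496 to 541 and 355 in cortex at PWK 14, from 2236 and 1845 to 1814 and 2338 in cortex at PWK 28, and from 1640 and 1271 to 1295 and 1892 in hippocampus at PWK 28. It moved the split for WT PWK 28 against PWK 7 from 1994 and 2090 to 2541 and 1708 in cortex and from 1168 and 1541 to 1590 and 1203 in hippocampus, and that for WT hippocampus against cortex at PWK 1 from 2954 and 3424 to 4405 and 2213.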

Other observations

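The ratio of H2-D1 to B2m counts, a heavy chain against the light chain, lay between 0.508 and 0.590 in the 4 KI hippocampi of PWK 14 and between 0.447 and 0.539 in the 4 WT hippocampi of that age. The groups overlapped.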
